A study of Homo sapiens with 6 samples.

Results

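The SLC22 family holds membrane carriers for organic ions, and 7 of its genes were followed here in RCC4 cells: SLC22A3, SLC22A4, SLC22A5, SLC22A15, SLC22A17, SLC22A18 and SLC22A23. They were taken by symbol from a count table of 60683 genes, of which 15321 had enough reads to test, among them 5 of the 7. RCC4, an established human line of clear cell renal carcinoma, has no working VHL, a loss known to stabilise hypoxia-inducible factors and shared by both groups. The groups were the parental line, wild type for ATF4 per its label (n = 3), and the same line with ATF4 knocked out (n = 3), with no treatment or time given for either. The labels give neither the way ATF4 was removed nor whether the knockout line is 1 clone, so differences between the populations other than ATF4 cannot be told apart from its loss. Nothing says that the replicates were separate cultures, and the p-values reflect the spread among these libraries alone, possibly a technical one. The comparison addresses which of these carriers differ in mRNA when ATF4, a stress-induced bZIP transcription factor, is missing.

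SLC22 carriers move small charged molecules across the plasma membrane, and in the kidney they serve the uptake and secretion of cations, anions and zwitterions by tubule cells. SLC22A5 (OCTN2) is the sodium-dependent carnitine transporter, through which the proximal tubule recovers filtered carnitine. Carnitine carries long-chain fatty acids into mitochondria for oxidation, and inherited loss of SLC22A5 causes systemic carnitine deficiency. SLC22A4 (OCTN1), its close paralog, prefers the antioxidant ergothioneine, SLC22A15 is a zwitterion carrier, and SLC22A3 (OCT3) takes up organic cations and monoamines. SLC22A18 and SLC22A23 remain without a settled substrate, and SLC22A17 was described as a receptor for the iron carrier lipocalin-2.

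ATF4 mRNA was largely retained in the knockout samples (parental 244 ± 5.97 CPM, knockout 214 ± 8.04 CPM, SD, n = 3 each; log2 fold change -0.19, SE 0.029, edgeR p_adj = 3.19e-07). The median of its 130 tested neighbours was -0.26, and with that median removed ATF4 was at 0.073 (edgeR p_adj = 0.0458), a turned direction. Counts per gene do not show an altered coding sequence, so this level does not check the labels. CPM are counts-per-million values after TMM scaling, and the libraries held 41002611 to 46755358 counts. All 8 listed markers of renal epithelium and clear cell carcinoma averaged at least 1 CPM, with summed levels of 5955 to 6311 CPM in parental and 6658 to 6861 CPM in knockout libraries. Of 5 markers of the mature proximal tubule, 2 reached 1 CPM (sums of 7.15 to 7.82 and 6.89 to 7.56 CPM), and LRP2 was at 0 counts in every parental library. Single markers moved within these sums, with CA9 5.84-fold and NDUFA4L2 1.70-fold higher and SLC34A1 lower (log2 fold change -0.61, edgeR p_adj = 0.0159). VIM, at 4808 CPM in parental and 5166 CPM in knockout libraries, was the largest part of the first sum. It was higher (0.10, edgeR p_adj = 0.00298), with a neighbourhood median of 0.12. PAX8 (-0.15, edgeR p_adj = 2.79e-05) and KRT18 (-0.092, edgeR p_adj = 0.00636) were lower, and PAX2, KRT8 and CD70 were not called. The call of SLC34A1 was lost by DESeq2, without parental replicate 2 and without knockout replicate 1 or 2 (p_adj of 0.0602 to 0.101). Of 7 markers of immune, endothelial and stromal cells, 2 reached 1 CPM, COL1A1 and PDGFRB, and the list summed to 58.5 to 73.0 CPM in parental and 51.3 to 52.0 CPM in knockout libraries. PTPRC, CD68, PECAM1, VWF and COL3A1 were each close to 0. Both expressed stromal markers were lower in knockout cells, PDGFRB (10.1 against 4.84 CPM, edgeR p_adj = 1.04e-12) and COL1A1 (57.6 against 46.6 CPM, edgeR p_adj = 0.0062). The call of COL1A1 was lost without any 1 knockout replicate (edgeR p_adj of 0.0563 to 0.0704). The part of these markers in the results below was not tested.

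The promoters of the carnitine and zwitterion carriers SLC22A5, SLC22A4 and SLC22A15 are shown because these genes open the results and 2 of them fell. Each run gives the 250 bases before the RefSeq start on the plus strand (RefSeq, GRCh38.p14), 5′ to 3′, with CG dinucleotides in capitals. The positions are chr5:132369460-132369709 for SLC22A5, chr5:132294144-132294393 for SLC22A4 and chr1:115976263-115976512 for SLC22A15.
SLC22A5: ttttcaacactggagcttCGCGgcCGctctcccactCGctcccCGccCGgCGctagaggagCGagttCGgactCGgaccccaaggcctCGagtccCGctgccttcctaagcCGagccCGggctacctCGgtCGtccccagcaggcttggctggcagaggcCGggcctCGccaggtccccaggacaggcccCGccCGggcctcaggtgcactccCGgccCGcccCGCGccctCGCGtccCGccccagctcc
SLC22A4: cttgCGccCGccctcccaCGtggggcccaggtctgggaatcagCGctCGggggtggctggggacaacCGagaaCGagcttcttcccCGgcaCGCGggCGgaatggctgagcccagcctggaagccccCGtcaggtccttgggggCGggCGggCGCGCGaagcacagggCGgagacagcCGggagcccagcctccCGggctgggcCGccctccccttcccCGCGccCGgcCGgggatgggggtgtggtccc
SLC22A15: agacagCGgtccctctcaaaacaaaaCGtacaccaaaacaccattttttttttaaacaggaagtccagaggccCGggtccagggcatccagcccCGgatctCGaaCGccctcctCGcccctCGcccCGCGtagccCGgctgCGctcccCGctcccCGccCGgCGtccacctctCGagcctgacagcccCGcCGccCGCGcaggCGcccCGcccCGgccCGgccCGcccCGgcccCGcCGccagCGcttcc
All are rich in CG. Counted over 300 bases, with 50 past the start, SLC22A5 held 36 CG dinucleotides, SLC22A15 held 37 and SLC22A4 held 29, against a median of 14 and quartiles of 4 and 28 over 35116 promoters of that length. Windows were found for 5 of the 7 genes. The window of SLC22A23, chr6:3324151-3324400, belongs to a start inside the gene, whose 5′ end in GENCODE 29 is at 3457022. The region before that end was not examined. This internal window held 11 CG dinucleotides, and the windows of the 2 starts of SLC22A17 held 12 and 20. On either strand, the composite C/EBP-ATF element TGATGNAA was in 0 of these 6 windows and in 3.62% of all promoters and the cyclic AMP response element TGACGTCA in 0 of these windows and in 1.85% of all promoters. The absence of these letters describes these windows only.

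Of the 5 genes tested, 4 were lower in ATF4 knockout cells, SLC22A5, SLC22A15, SLC22A18 and SLC22A23, and 0 were higher, also at an unadjusted p below 0.05 and by DESeq2 and limma-voom. Over all tested genes 20.8% were called lower (edgeR, p_adj below 0.05 over 15321 genes) and 21.2% higher. In each of the 4 every knockout library lay below every parental library, as in 24.3% of all tested genes. The median log2 fold change of the 5 was -0.48, against 0.0077 over all tested genes. SLC22A4 was not called, and SLC22A17 and SLC22A3 were too low to test. In bulk samples, less mRNA per cell cannot be told apart from fewer cells that make it.

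**Figure D1:**
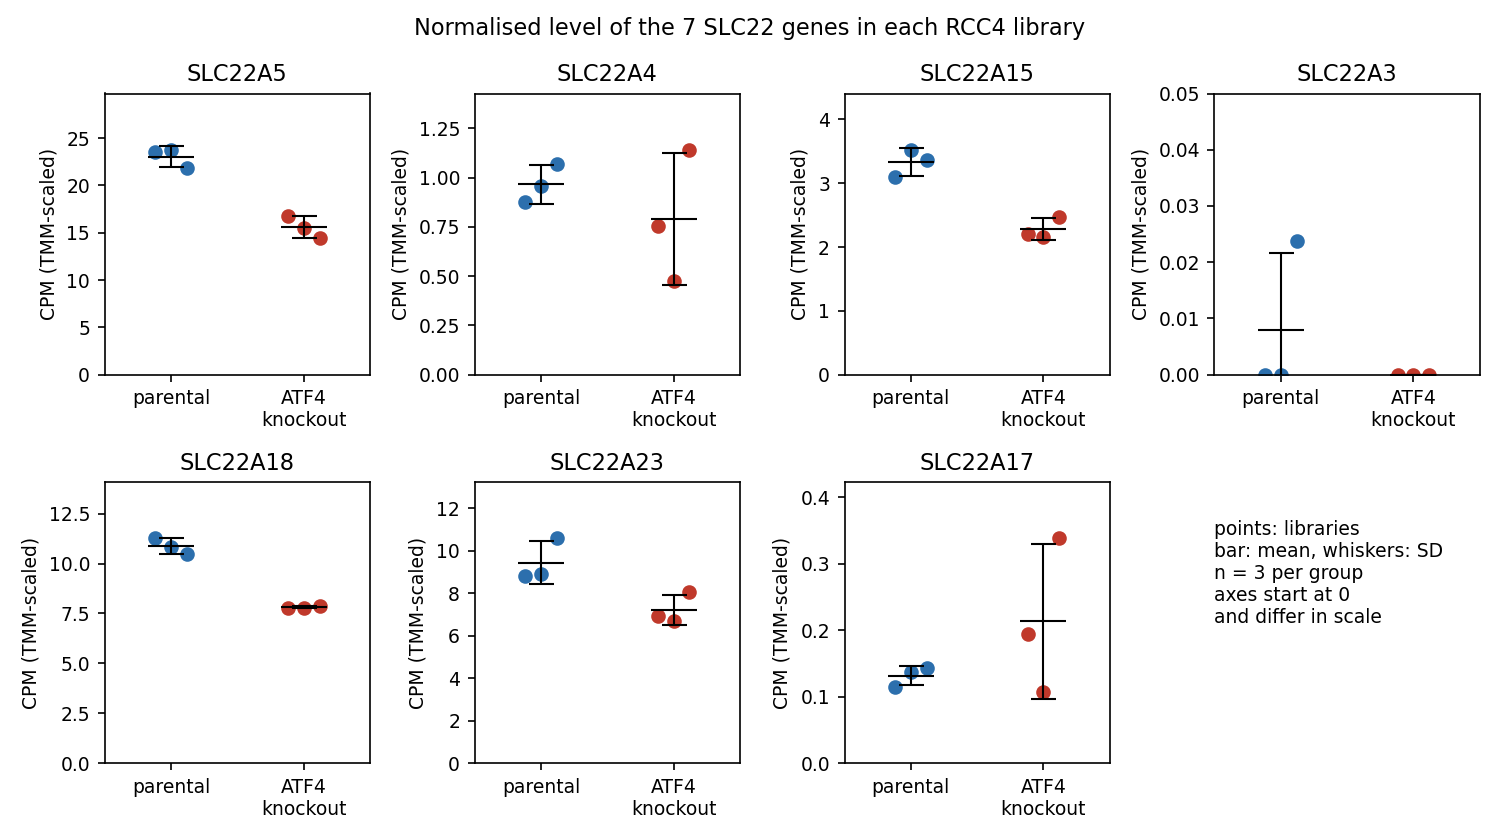
Normalised level in CPM (linear axes from 0, each with its own scale) of the 7 genes in each parental (blue) and ATF4 knockout (red) library, where bars mark the mean of 3 libraries and whiskers its SD. The groups are apart for SLC22A5, SLC22A15, SLC22A18 and SLC22A23 and overlap for SLC22A4 and SLC22A17, and SLC22A3 has 1 read in 1 parental library.

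SLC22A5, the carnitine transporter, had the highest level in CPM of the 7 and was lower in every knockout library. SLC22A5 (ENSG00000197375) occupies positions 132369752 to 132395614 of chromosome 5, plus strand (GRCh38, GENCODE 29). Its level was 23.6, 23.8 and 21.8 CPM in the parental libraries and 16.8, 15.5 and 14.4 CPM in the knockout libraries. The lowest parental library stood well above the highest knockout library. The means of 23.0 ± 1.07 and 15.6 ± 1.18 CPM (SD, n = 3 each) differed 1.48-fold (log2 fold change -0.57, 95% interval -0.70 to -0.44, SE 0.066, edgeR p_adj = 1.97e-10). A called fall of at least this size was seen in 546 genes, 3.56% of those tested.

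SLC22A4, the ergothioneine transporter beside it, was expressed at a far lower level and was not called. SLC22A4 (ENSG00000197208) spans 132294443 to 132344206 on the same strand. It had 38, 42 and 45 counts in the parental libraries and 31, 22 and 54 in the knockout libraries, or 0.966 ± 0.0976 and 0.790 ± 0.336 CPM (SD, n = 3 each). The third knockout library lay above every parental library and the other two lay below, so the groups overlapped. The log2 fold change of -0.29 had an interval from -0.86 to 0.29 (SE 0.288, edgeR p_adj = 0.456), which holds the value of SLC22A5 as well as 0. It was -0.67 without knockout replicate 3 and -0.016 without knockout replicate 2.

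The ratio of the paralogs needs no scaling between libraries. For every 100 counts of SLC22A5 there were 3.71, 4.02 and 4.90 counts of SLC22A4 in the parental libraries and 4.49, 3.05 and 7.91 in the knockout libraries. The difference was 0.19 on the log2 scale (two-sided exact permutation p = 0.8), and 3 against 3 libraries cannot go below 0.1, so no call was possible. It was -0.18 without knockout replicate 3 and 0.51 without knockout replicate 2.

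SLC22A15, the zwitterion carrier, fell by nearly the same factor as SLC22A5 from a much lower level. SLC22A15 (ENSG00000163393) occupies positions 115976498 to 116070054 of chromosome 1, plus strand. Its level was 3.11, 3.53 and 3.37 CPM in the parental libraries and 2.21, 2.15 and 2.47 CPM in the knockout libraries. The groups did not overlap. The means of 3.33 ± 0.213 and 2.28 ± 0.171 CPM (SD, n = 3 each) differed 1.46-fold (log2 fold change -0.55, 95% interval -0.85 to -0.24, SE 0.153, edgeR p_adj = 0.0028). Which of SLC22A15 and SLC22A5 fell more is not resolved, since their intervals overlap and the order turned with the neighbourhood median removed, without parental replicate 1 and without knockout replicate 3. With 91 to 155 counts per library the interval is wider than that of SLC22A5.

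SLC22A3, the organic cation and monoamine transporter, was not detected beyond a single read. SLC22A3 occupies positions 160348268 to 160452581 of chromosome 6, plus strand. It had 1 count over the 3 parental libraries and 0 over the 3 knockout libraries, where a count of 0 allows up to 0.0642 to 0.0732 CPM per library (3 counts, counting error only). No fold change can be given at this depth.

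SLC22A18 was lower in every knockout library. SLC22A18 (ENSG00000110628), a carrier gene of the imprinted domain on chromosome 11, spans 2899721 to 2925246 on the plus strand. Its level was 11.3, 10.8 and 10.5 CPM in the parental libraries and 7.78, 7.77 and 7.87 CPM in the knockout libraries. The groups were well apart. The knockout libraries lay closer together than counting error at 320 to 372 counts per library would give, so this closeness is not read as a trait of the gene. The means of 10.9 ± 0.400 and 7.80 ± 0.0541 CPM (SD, n = 3 each) differed 1.39-fold (log2 fold change -0.48, 95% interval -0.65 to -0.30, SE 0.088, edgeR p_adj = 1.08e-05).

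SLC22A23, an orphan carrier, was also lower in every knockout library. SLC22A23 (ENSG00000137266) occupies positions 3268962 to 3457022 of chromosome 6, minus strand. Its level was 8.83, 8.89 and 10.6 CPM in the parental libraries and 6.90, 6.71 and 8.04 CPM in the knockout libraries. The third library was the highest in each group, and the highest knockout library lay just below the lowest parental one. The means of 9.44 ± 0.997 and 7.22 ± 0.715 CPM (SD, n = 3 each) differed 1.31-fold (log2 fold change -0.38, 95% interval -0.58 to -0.19, SE 0.098, edgeR p_adj = 0.00106). A called fall of at least this size was seen in 972 genes, 6.34% of those tested.

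SLC22A17, the lipocalin-2 receptor gene, was close to the limit of detection. SLC22A17 occupies positions 23346306 to 23352912 of chromosome 14, minus strand. It had 5, 6 and 6 counts in the parental libraries and 8, 5 and 16 in the knockout libraries. The groups overlapped, and a difference was not detectable at this depth. A fit with no filter on low counts gave a log2 fold change of 0.71 (edgeR p_adj = 0.548).

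**Figure D2:**
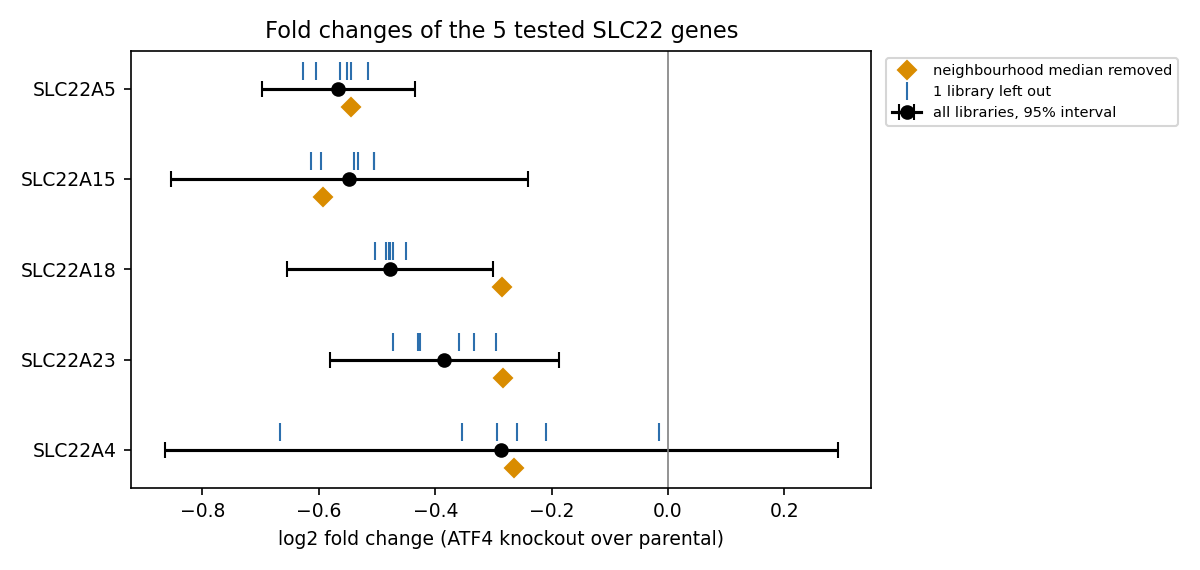
Log2 fold change, ATF4 knockout over parental, of the 5 tested genes with its 95% interval (black), after removal of the median of genes within 5 Mb (orange diamonds) and with each library left out in turn (blue ticks). SLC22A5, SLC22A15, SLC22A18 and SLC22A23 stay below 0 throughout, and the interval of SLC22A4 spans 0.

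The called genes fell 1.31-fold to 1.48-fold. Their 95% intervals overlapped, and no test between genes was run. With the neighbourhood median removed, SLC22A5 and SLC22A15 were at -0.55 and -0.59, and SLC22A18 and SLC22A23 at -0.29 and -0.28. Summed over the 7 genes, the level fell from 47.8 ± 0.324 to 33.9 ± 1.03 CPM (SD, n = 3 each), 29.1% lower. The make-up of this sum moved little. SLC22A5 held 48.2 ± 1.97% of the summed counts in parental and 46.0 ± 3.41% in knockout libraries. SLC22A18 held 22.7 ± 0.794% and 23.0 ± 0.646%, SLC22A23 held 19.8 ± 2.201% and 21.3 ± 1.87%, and SLC22A15 held 6.98 ± 0.425% and 6.72 ± 0.434%. SLC22A4 held 2.02 ± 0.212% and 2.32 ± 0.949%. SLC22A17, with 5 to 16 counts per library, held 0.275 ± 0.0305% and 0.626 ± 0.334%, a difference beyond the parental SD and near the knockout SD. The other differences are within or near the spread between replicates, and no test of the shares was run.

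The order of the genes by level per length depended on the length used. By the total length of all exons, SLC22A18 was highest in parental cells at 2.04 ± 0.0753 CPM per kb, ahead of SLC22A5 at 1.80 ± 0.0836 CPM per kb. By the mean length of the coding transcripts, SLC22A5 was highest at 9.25 ± 0.429 CPM per kb and SLC22A18 followed at 7.07 ± 0.260 CPM per kb. SLC22A23, SLC22A15, SLC22A4, SLC22A17 and SLC22A3 then followed in that order with either length. On the exon scale their parental means were 1.06, 0.630, 0.359, 0.0307 and 0.0024 CPM per kb. In parental cells each gene differed from the next in either order by more than their summed SDs (n = 3 each), with no test run.

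Each gene was then set against its genomic neighbourhood, since the median change of a region was not always near 0. SLC22A5 stood apart from a region with little shift. Of 51 tested genes within 5 Mb, 13 were called lower and 8 higher, their median log2 fold change was -0.02, and 2 lay at or below SLC22A5. With that median removed its log2 fold change was -0.55 (edgeR p_adj = 7.82e-10). IRF1, an interferon-induced transcription factor and the next protein-coding gene on the far side, was at 0.02 (edgeR p_adj = 0.756). P4HA2, a collagen prolyl hydroxylase whose 5′ end overlaps SLC22A4 on the other strand by 873 bases, was higher (0.12, edgeR p_adj = 0.000507).

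The noncoding gene MIR3936HG runs antisense through SLC22A4 over 32922 bases and reaches 165 bases into SLC22A5. Its log2 fold change of -0.40 passed narrowly (3.06 ± 0.247 and 2.32 ± 0.552 CPM, SD, n = 3 each; edgeR p_adj = 0.0462). The call was lost without parental replicate 1 or 3 and without knockout replicate 1 or 3, with p_adj of 0.0810 to 0.253 in these edgeR fits, and the value was -0.61 without knockout replicate 2. It was also lost with total counts only, DESeq2, no filter on low counts, the replicate block and the neighbourhood median removed (p_adj of 0.0507 to 0.146). The kit keeps strand, but the setting of the counting step is not known here, so reads in the shared stretches cannot be assigned with certainty.

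SLC22A15 fell in a region where more genes were higher than lower. Of 68 tested neighbours 18 were called higher and 9 lower, with a median of 0.05, and 5 lay at or below SLC22A15. With that median removed its log2 fold change was -0.59 (edgeR p_adj = 0.00145). VANGL1, a planar cell polarity gene on one side, was higher (0.14, edgeR p_adj = 0.00188). MAB21L3 on the other side was at -0.80 with 15 to 42 counts per library (edgeR p_adj = 0.0499), a call that was lost without parental replicate 1 or 2 and without knockout replicate 2 or 3 (edgeR p_adj of 0.0900 to 0.220). MAB21L3 also lost its call with total counts only, DESeq2, no filter on low counts and the replicate block (p_adj of 0.0524 to 0.150).

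SLC22A18 lay among genes that were lower as a group. Of 98 tested neighbours 52 were called lower (53.1%) and 4 higher, their median was -0.19, and 13 lay at or below SLC22A18. With that median removed its log2 fold change was -0.29 (edgeR p_adj = 0.00795), the largest shift among the 4 called genes. CDKN1C, a cyclin-dependent kinase inhibitor on one side, fell 3.11-fold (130 ± 6.03 to 41.9 ± 0.830 CPM, SD, n = 3 each; log2 fold change -1.64, SE 0.038, edgeR p_adj = 7.60e-40). PHLDA2, a growth-restraining imprinted gene on the other, was at -0.24 (edgeR p_adj = 0.0166) and at -0.04 with the median removed (edgeR p_adj = 0.717). The call of PHLDA2 was also lost without parental replicate 1 or 3 and without knockout replicate 1 (edgeR p_adj of 0.0575 to 0.0949). SLC22A18AS, which overlaps SLC22A18 on the other strand by 4020 bases, had 12 to 24 counts per library and a log2 fold change of -0.16 (edgeR p_adj = 0.778).

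SLC22A23 lay in a region with a smaller downward shift. Of 48 tested neighbours 15 were called lower and 2 higher, with a median of -0.10, and 2 lay at or below SLC22A23. With that median removed its log2 fold change was -0.28 (edgeR p_adj = 0.0187). PSMG4, a proteasome assembly factor that shares 34412 bases with it on the other strand, was at -0.15 (edgeR p_adj = 0.0773; 0.0469 without knockout replicate 1). TUBB2B, a beta-tubulin, was at -0.27 (edgeR p_adj = 0.0805; 0.00755 without parental replicate 3), and PXDC1 fell (-0.21, edgeR p_adj = 0.00096), or -0.11 with the median removed (edgeR p_adj = 0.110).

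**Figure D3:**
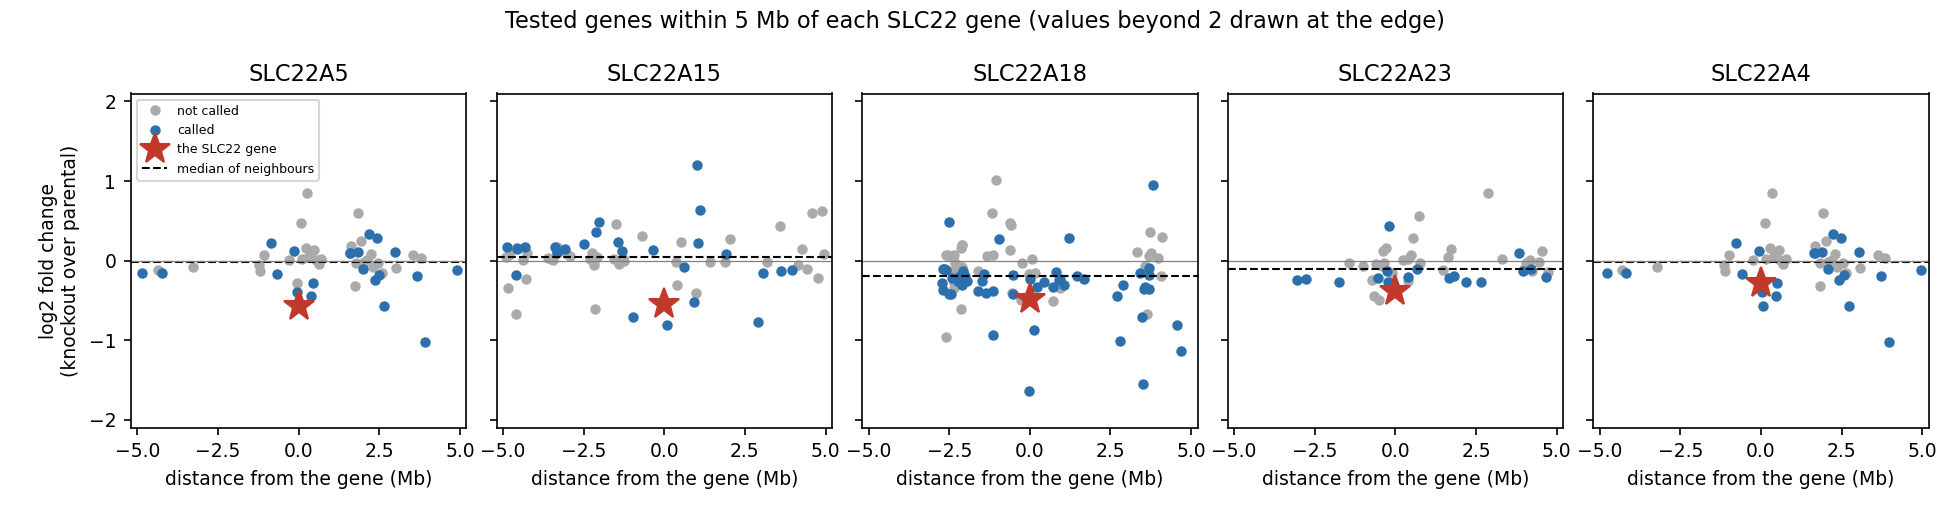
Log2 fold change of tested genes within 5 Mb of each tested SLC22 gene against distance from it, with called genes in blue, others in grey, the SLC22 gene as a red star and the median as a dashed line. The median is near 0 around SLC22A5 (-0.02) and SLC22A15 (0.05) and at -0.19 around SLC22A18.

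The genes whose pattern over the 6 libraries was closest to SLC22A5, out of 11383 protein-coding genes that averaged 1 CPM or more, were RWDD2A, CD99 and GBP1. Their root mean square distances from it in centred log2 CPM were 0.0211, 0.0402 and 0.0422. Closest to SLC22A15 were FBXO32 (0.0479), LZTR1 (0.0497) and FLRT3 (0.0565). The log2 fold changes of these 6 genes were between -0.58 and -0.51, which follows from their choice by likeness over the same libraries. That of LZTR1 was -0.25 with its neighbourhood median removed.

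Carnitine transported by SLC22A5 is used by acyltransferases. Genes listed for carnitine synthesis and its shuttle, acyl-CoA synthetases among them, gave more lower than higher calls. CPT1A, CPT2, SLC25A20 and TMLHE of the same list were not called. Of 13 tested genes of this list 7 were lower, 1 was higher and 5 were not called, with a median log2 fold change of -0.15. Over all tested genes 20.8% were called lower and 21.2% higher, and neither this list nor those below were tested as sets. ACSL4 and ACSL1, which activate long-chain fatty acids, were lower (log2 fold change -0.41 and -0.30, and -0.19 for ACSL4 with its neighbourhood median removed), as was SLC16A9, a carnitine efflux carrier (24.98 ± 0.578 to 19.8 ± 0.665 CPM, SD, n = 3 each; log2 fold change -0.34, edgeR p_adj = 4.04e-06). CRAT, the carnitine acetyltransferase, was at -0.24 (edgeR p_adj = 0.000215). ALDH9A1 and SHMT1, enzymes tied to carnitine synthesis, were lower by less (-0.15 each). CROT, the peroxisomal octanoyltransferase, was at -0.19 (edgeR p_adj = 0.0479) and lost its call under 9 alternatives, among them every left-out library but knockout replicate 1, with a value of -0.11 without knockout replicate 2. ACSL5, another acyl-CoA synthetase, was higher (37.8 ± 0.870 to 56.0 ± 3.02 CPM, SD, n = 3 each; log2 fold change 0.57, edgeR p_adj = 2.05e-15).

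The mitochondrial gates themselves were not called. CPT1A, the outer membrane carnitine palmitoyltransferase, was at 4.65 ± 0.540 and 4.88 ± 0.288 CPM (log2 fold change 0.07, edgeR p_adj = 0.690) and CPT2, its inner membrane partner, at 35.7 ± 1.10 and 36.1 ± 0.792 CPM (0.02, edgeR p_adj = 0.826; SD, n = 3 each). SLC25A20, the carnitine-acylcarnitine exchanger, was at 0.16 (edgeR p_adj = 0.170), ACSL3 at 0.08 (edgeR p_adj = 0.0863) and TMLHE, the first enzyme of carnitine synthesis, at -0.09 (edgeR p_adj = 0.292). BBOX1, CPT1B, CPT1C and SLC6A14 could not be tested, and none exceeded 8 counts in a library.

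Enzymes of mitochondrial fatty acid oxidation gave more higher than lower calls. Of 15 tested genes 8 were higher and 2 lower, against 21.2% and 20.8% over all tested genes. Their median log2 fold change was 0.09. ECI1, an enoyl-CoA isomerase, rose most (0.56), and ECHS1 (0.16), ACADM (0.20) and ACAA2 (0.12) rose by less. DECR1, a dienoyl-CoA reductase, and ACADS, the short-chain acyl-CoA dehydrogenase, fell (-0.24 and -0.28). The count of higher genes was 5 without knockout replicate 1. ACADVL (0.09), ETFA (0.11), HADH (0.14) and ETFB (0.18) were also called higher. The medians of their neighbourhoods were 0.11, 0.07, 0.09 and 0.01. With the neighbourhood median removed 4 genes were higher and 3 lower. ACAA2 was among those that lost their call (0.080, edgeR p_adj = 0.0638).

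A further list held scaffolds that bind carnitine transporters and factors known to act on the genes of these transporters. Of its 11 tested genes 5 were lower, 1 was higher and 5 were not called (median -0.14). The shares over all tested genes were 20.8% lower and 21.2% higher. PPARA and PPARD, lipid-sensing nuclear receptors, were at -0.47 and -0.45 (edgeR p_adj = 4.97e-12 and 2.79e-13), and their partners RXRA and RXRB at -0.17 and -0.14. After its neighbourhood median was removed, PPARA was at -0.20 (edgeR p_adj = 0.000768) and RXRB lost its call (edgeR p_adj = 0.105). PDZK1, a scaffold that binds carrier tails, was lower (-0.11, and -0.23 with the median removed) and the scaffold NHERF1 higher (0.19, and 0.08 with the median removed, where edgeR p_adj = 0.0740). NHERF4 (-0.69), HNF4A (-0.53), NHERF2 (0.61), PPARGC1A (0.14) and PPARG (0.06) were not called.

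Other carriers of organic cations gave 3 lower, 1 higher and 7 not called of 11 tested (median -0.19). With 20.8% lower and 21.2% higher over all tested genes, these few calls do not set the list apart. ABCB1, the multidrug efflux pump, was lower (88.6 ± 3.55 to 54.1 ± 2.18 CPM, SD, n = 3 each; log2 fold change -0.71), as were the nucleoside carrier SLC29A1 (-0.32) and the monoamine carrier SLC29A4 (-0.36). The call of SLC29A4 was lost without parental replicate 1 (edgeR p_adj = 0.0571). The choline carrier SLC44A1 was higher (0.26), and the count of higher genes was 2 without parental replicate 1 or 2 or knockout replicate 2.

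Organic anion carriers outside the SLC22 family were split, with 5 lower, 3 higher and 4 not called of 12 tested (median -0.01). Across all tested genes 20.8% were lower and 21.2% higher. SLC17A3 (-0.59), SLCO4C1 (-0.25), ABCC4 (-0.17), ABCC5 (-0.22) and SLCO4A1 (-0.22) were lower. SLCO4A1 lost its call with the neighbourhood median removed (-0.033, edgeR p_adj = 0.775), without parental replicate 1 (-0.16, edgeR p_adj = 0.145) and without knockout replicate 3 (-0.20, edgeR p_adj = 0.0576). The uptake carrier SLCO2B1 rose from 2.52 ± 0.251 to 54.7 ± 0.585 CPM (SD, n = 3 each; log2 fold change 4.44), and the efflux pumps ABCC2 (0.56) and ABCC3 (0.37) rose with smaller changes. SLC17A1 (0.57), ABCC1 (0.07), SLCO3A1 (-0.09) and SLC2A9 (0.46) were not called.

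In the list for the lipocalin-2 axis to which SLC22A17 belongs, 4 of 5 tested genes were lower (median -0.16), against 20.8% over all tested genes. SLC22A17 and its ligand gene LCN2 were too low to test, so these calls describe the single genes and not the axis. The ferritin subunits FTH1 and FTL were at -0.32 and -0.16, the transferrin receptor TFRC at -0.11 and the apoptosis gene BCL2L11 at -0.21, whose call was lost without parental replicate 3 or knockout replicate 1 (edgeR p_adj = 0.0642 and 0.0654). With the neighbourhood median removed FTH1 was at -0.19 and TFRC at -0.19. CUBN, a tubular endocytic receptor, was at 0.16 and not called (edgeR p_adj = 0.747). LCN2 itself and LRP2, AMN and SLC40A1 could not be tested, and none exceeded 7 counts in a library.

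**Figure D4:**
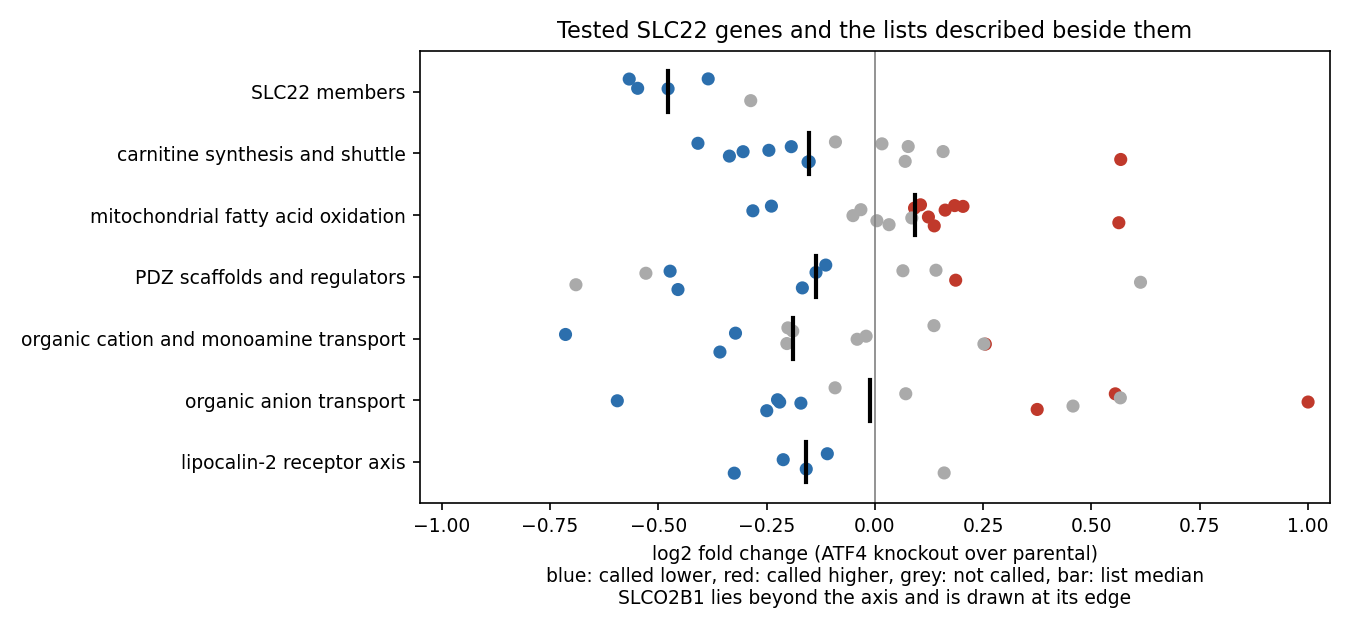
Log2 fold change of each tested gene of the SLC22 group and of 6 lists, with genes called lower in blue, called higher in red, others in grey and the list median as a bar. The SLC22 median is at -0.48, that of carnitine synthesis and shuttle at -0.15 and that of fatty acid oxidation at 0.09.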

How the data were processed

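RNA sequencing was performed on 3 parental and 3 ATF4 knockout RCC4 samples, grouped by their labels. The deposited table holds raw read counts per gene for 60683 Ensembl genes, made by the authors from stranded mRNA libraries. The submitters' processing notes name bcl2fastq 2.20, cutadapt, STAR, HTSeq and GRCh38. For cutadapt, STAR and HTSeq the version is not given in the sources used here, nor are the gene annotation and the handling of strand. In its default mode HTSeq drops ambiguous reads, which affects overlapping genes and near-identical paralogs.

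Symbols came from a table of gene names for 60370 genes and from GENCODE 29 for a further 289, and coordinates are those of GENCODE 29. In R 4.3.3, genes kept by filterByExpr (15321) were scaled by TMM and tested with the quasi-likelihood F test of edgeR 4.0.16 with robust dispersion and no replicate term. P-values were adjusted by Benjamini-Hochberg over these genes and called below 0.05. Intervals are 95% intervals of the fit. Alternatives were other scalings, DESeq2 1.42.0, limma-voom (limma 3.58.1), other filters (none, or at least 1 CPM in 3 samples), a replicate block, removal of the median log2 fold change of neighbours within 5 Mb on each side (at least 20 genes), and leaving out each library. Libraries held 41002611 to 46755358 counts, and differed by 3.59 to 5.80 times sampling noise within a group and 37.9 to 44.1 times between groups, so all 6 were kept.

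The members and lists were chosen with earlier results of these data known. The text names the 7 genes, ATF4, for each list the 4 genes with the smallest p-values and every gene behind a count of at most 5, the neighbours and overlapping genes of called members, and the 3 genes most like SLC22A5 and SLC22A15. The oxidation genes that were not called, overlapping antisense genes near 0 counts, the marker genes and P4HA2 depart from this rule or were singled out after their values were seen. CRAT, ALDH9A1, SHMT1 and CROT of the carnitine list also fall outside the rule. The same holds for the oxidation genes ACADM, ACAA2, ACADVL, ETFA, HADH and ETFB. The rest of the SLC22 family, which the rule partly covers, a marker gene and the neighbours of members that were not called are otherwise not reported here.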

Additional observations from a re-analysis of the deposited data

How the results depend on the processing

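SLC22A5, SLC22A15, SLC22A18 and SLC22A23 were called lower in the fit given and in all 14 alternatives run, and 4 members were lower and 0 higher each time. Over these 15 fits the log2 fold change ran from -0.63 to -0.52 for SLC22A5, -0.61 to -0.51 for SLC22A15, -0.50 to -0.29 for SLC22A18 and -0.47 to -0.28 for SLC22A23, with the highest adjusted p at 1.38e-07, 0.0176, 0.00795 and 0.0212. SLC22A4 was called in none of its 14 fits (-0.67 to -0.016, adjusted p 0.117 to 0.98) and was left out by the strict filter. Leaving out 1 library moved the log2 ratio of SLC22A4 to SLC22A5 between -0.18 and 0.51. Replicate numbers did not pair the samples (correlations of deviations -0.014, 0.032 and -0.0056). With the replicate block, SLC22A5 was at -0.57 (p_adj = 5.54e-09) and SLC22A4 at -0.33 (p_adj = 0.382).

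With total counts only, the genes called higher were 2 for carnitine synthesis and shuttle, 2 for organic cations and 5 for organic anions. With the neighbourhood median removed they were 4 for fatty acid oxidation, 2 for organic cations and 0 for scaffolds and regulators. With 1 library left out they ran from 5 to 8 for fatty acid oxidation and from 1 to 2 for organic cations. Removal of the neighbourhood median turned ATF4 to 0.073 (p_adj = 0.0458), TMLHE to 0.098, CPT2 to -0.015 and SLC22A18AS to 0.032. With 1 library left out, SLC22A18AS ran from -0.41 to 0.083, IRF1 from -0.0025 to 0.035, CPT1A from -0.0019 to 0.16, CPT2 from -0.0058 to 0.039 and CUBN from -0.12 to 0.40. The cause was not tested. Depth limits SLC22A3, SLC22A17 and SLC22A4 most, and 3 libraries per group and populations that may differ in more than ATF4 limit all values.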
